A study of Mus musculus with 12 samples.

Results

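Cells on days 4, 5 and 6 after transfer to normoxic standard conditions were compared with cells on days 1, 2 and 3 after the same transfer. The samples were chosen by their labelled day, 1 array per day, which gave 3 arrays against 3, or 6 of the 12 arrays of the study. The cells were immortalized tumor-initiating cells of the mouse, that is, tumour cells able to seed a tumour that had been made to grow without limit. Before the transfer they had been kept in hypoxic stem cell conditions, a serum-free mammary stem cell medium supplemented with 2% Cultrex (a basement membrane preparation) under 3% oxygen. Normoxic standard conditions were a DMEM-based standard medium under 21% oxygen. Every one of the 6 arrays came from cells that had gone through this change of medium and oxygen together, so neither comparison of days holds an unchanged control and oxygen and medium cannot be told apart. The other 6 arrays, which set the spread between samples and the levels before and after, were 3 hypoxic controls that had not been transferred and 3 of cells on day 7 in normoxic standard conditions. RNA abundance was measured with Illumina Mouse WG-6 v2.0 BeadChips, on which labelled cRNA binds oligonucleotide probes carried on beads. The labels give neither the number of cell lines or clones nor whether each day was a culture of its own. The p-values therefore reflect only how far these samples scatter, and that scatter may be technical.

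The question of the comparison is what changed after the early response to the transfer. Values are log2 signals after background correction and quantile normalization over all 12 arrays, and a difference is the mean of days 4 to 6 minus the mean of days 1 to 3. "Rose" and "fell" are used of genes with a limma adjusted p below 0.05, and SE is the standard error of the difference. On each array 34.3% to 37.7% of the probes were detected, and 10365 genes were measured. For arrays, the number of arrays limits the precision. From the order of the deposited tables, the 12 arrays fall into 2 sets of 6 that may have been handled together, which no label states. All of days 1 to 3 lie in one set and all of days 4 to 6 in the other, so that the set can be allowed for only through the hypoxic and day 7 triplicates, each of which has arrays in both sets. The sample names of both deposited tables also conflict, and the names of the table of all signals were used here.

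The label of the cells was set against marker genes. Markers of epithelium were detected on all 6 arrays, with the basal keratin Krt14 at 14.65 ± 0.06 on days 1 to 3 and 14.53 ± 0.05 on days 4 to 6 (mean ± SD, n = 3) and the epithelial cadherin Cdh1 at 11.38 ± 0.06 and 11.20 ± 0.11. Of the macrophage list, 2 of 14 genes with a named probe were measured, Mpeg1 and Cd14, and neither Adgre1 nor Csf1r passed the detection filter. Of the lymphocyte list, 1 of 9 was measured (Cd4), and of the adipocyte list 0 of 6. Ptprc, Cd3e, Pecam1 and Cdh5, which define leukocytes and endothelium, did not pass the detection filter. Of the endothelial list, however, 3 of 11 were measured, 2 of them detected on all 6 arrays, and Egfl7 rose on its brightest probe. Of the muscle list, 2 of 8 were measured, of which Acta1 fell. Cd14, which epithelial cells can also express, rose by 1.21 ± 0.26, while the difference of Mpeg1 was not above 0. The summed linear signal of both macrophage markers therefore followed Cd14. It ran from 684 to 968 on days 1 to 3 and from 1240 to 2716 on days 4 to 6. Some fibroblast markers also moved with the comparison. Of 10, 6 were measured, of which Dcn and Pdgfra rose, the latter with a call that ended without any of 4 arrays (highest adjusted p 0.0928). The summed linear signal of the 6 ran from 493 to 1023 on days 1 to 3 and from 1463 to 3054 on days 4 to 6. This sum followed mostly Dcn, at log2 5.89 to 7.22 on days 1 to 3 and 9.51 to 11.11 on days 4 to 6. The other 4 markers measured did not pass the threshold. Lum, Fap, Thy1 and Postn did not pass the detection filter, and the part of macrophages or fibroblast-like cells in the rises given below was not tested.

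As background, cells taken from stem cell medium into standard medium can enter squamous differentiation, the programme by which stratified epithelium builds its barrier. In that programme cells make stress keratins and the precursors of the cornified envelope, a protein shell that transglutaminases crosslink under the membrane, together with the proteases that later free the cells from one another. Interferon-stimulated genes, which carry a shared response element in many of their promoters, and acute-phase and chemokine genes, many of them under NF-kB and STAT3, form the inducible inflammatory response of epithelial cells.

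Between days 1 to 3 and days 4 to 6, 19 of 29 measured cornified envelope genes and 9 of 30 ribosome production genes fell, and 15 of 38 interferon-response genes and 13 of 40 chemokine and NF-kB target genes rose. In all, 1362 of 10365 genes (13.1%) passed the threshold, of which 722 (6.97%) rose and 640 (6.17%) fell. At least 2-fold apart were 380 of them (3.67%), 219 higher and 161 lower. The median difference over all genes was 0.0010, that of the genes that rose 0.80 and that of the genes that fell -0.75. Values of both windows did not overlap for 3246 genes (31.3%), among them 1346 of the 1362.

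How many genes pass depends on how the spread is estimated. With the inferred array set as a block, 0 genes passed limma's adjusted threshold (0%, lowest adjusted p = 0.0734), while 1620 (15.6%) had an unadjusted p below 0.05, against 3004 (29%) without the block. The called genes were chosen on the unblocked difference, and the blocked one uses the same arrays, so that agreement between both is no independent check. All 1362 called genes kept their sign under the block, 1029 of them (75.6%) had an unadjusted p below 0.05, and the median ratio of the blocked to the unblocked difference was 0.96. The median SE grew from 0.197 to 0.288. The set term itself was past the adjusted threshold for 0 genes and had an unadjusted p below 0.05 for 422 (4.07%). With the spread taken from the 6 arrays alone 31 genes passed, and without day 2, day 5 or day 6 the count fell to 617, 614 and 588. With the block and a mean for each of the 8 labelled groups, in which the triplicates alone set the spread, 117 passed, 106 of them among the 1362. No gene named below passed in the fit of the 4 windows with the set block, and each adjusted p is from that fit without it.

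**Figure D1:**
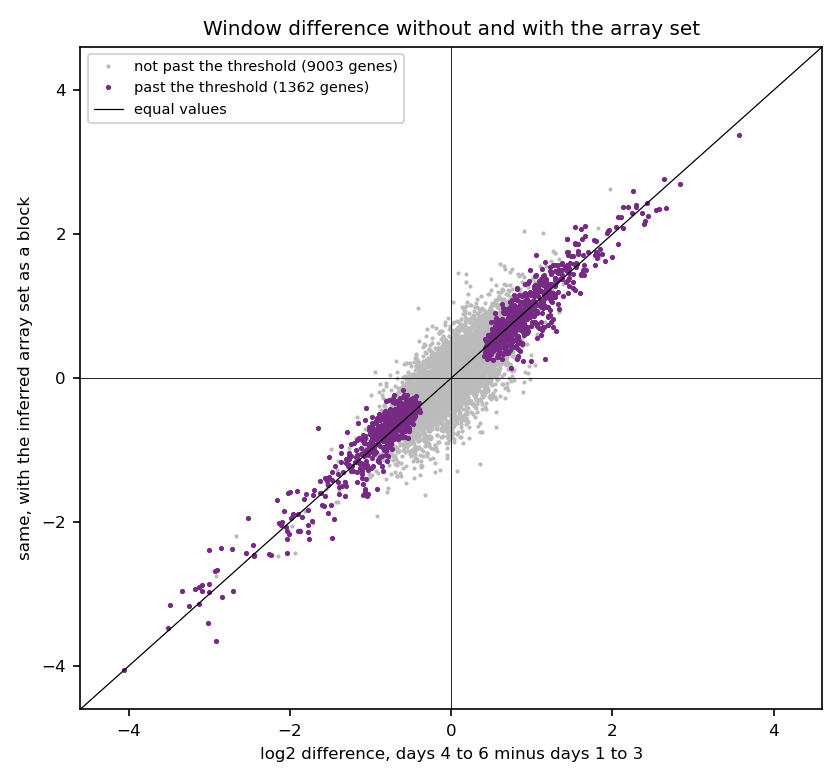
Log2 difference between days 4 to 6 and days 1 to 3 for each of 10365 genes, without (horizontal) and with (vertical) the inferred array set as a block; purple points are the 1362 genes past the threshold without the block and the line marks equal values. The purple points lie along the line in the upper right and lower left quadrants, in which all 1362 keep their sign.

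The largest falls were those of genes of the terminally differentiating epidermis. Asprv1, an aspartic protease of the granular layer that processes profilaggrin, gave log2 signals of 14.42, 12.12, 9.71, 9.02, 8.13 and 6.93 on days 1 to 6 in turn. The level was lower on each day than on the day before, and the windows did not overlap. Asprv1 fell by 4.05 ± 0.93 SE (16.6-fold, adjusted p = 0.0192), a call that ended without day 2, day 5 or day 6 (adjusted p 0.0515 to 0.0683). Cnfn, cornifelin, a small protein of the cornified envelope, gave 12.92, 10.87, 10.05, 8.88, 7.63 and 6.80. It likewise was lower on every later day, and fell by 3.51 ± 0.70 (11.4-fold, adjusted p = 0.0115). The serpin Serpinb2, an inhibitor of urokinase-type plasminogen activator that is crosslinked into the envelope, gave 11.52, 10.26, 9.42, 7.96, 5.92 and 7.55, so that day 5 was its lowest day. Serpinb2 fell by 3.26 ± 0.55 (9.57-fold, adjusted p = 0.00645). Hypoxic cells had 4.51 to 4.56 for Serpinb2 and 5.25 to 6.32 for Cnfn, far under day 1.

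Of the further 12 largest falls, Krt16, a keratin of stressed and hyperproliferative epidermis, gave 13.31, 11.41, 10.34, 9.07, 7.73 and 8.98. Krt90, another type II keratin, gave 12.94, 11.77, 10.52, 9.02, 7.86 and 8.33. Both were highest on day 1 and lowest on day 5. Krt16 changed by -3.09 ± 0.59 (adjusted p = 0.0102) and Krt90 by -3.34 ± 0.50 (0.00483). The kallikreins are secreted serine proteases, of which Klk7 cleaves the corneodesmosomes that hold horny cells together. Klk7 gave 13.25, 11.56, 9.91, 9.38, 8.70 and 7.26 and Klk6 gave 14.36, 13.61, 11.55, 10.72, 10.04 and 9.73. Cdsn, corneodesmosin, the adhesive protein of those junctions, gave 10.56, 8.56, 7.49, 5.78, 5.69 and 6.11. The differences were -3.13 ± 0.71 for Klk7 (adjusted p = 0.0191), -3.01 ± 0.53 for Klk6 (0.00803) and -3.01 ± 0.58 for Cdsn (0.0102). The call of Klk7 ended without day 2 or day 6 (adjusted p 0.0542 and 0.0672). Cdsn differed from the others before the transfer, at 9.43 to 9.54 in hypoxic cells. On other probes Cdsn stood at -1.91, past the threshold, and at -1.44, not past it (limma adjusted p 0.0382 and 0.0531). The size of its fall therefore depends on the probe.

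Rptn, repetin, an S100-fused envelope precursor, gave 10.82, 7.37 and 5.55 on days 1 to 3 and was detected on 0 of 3 arrays of days 4 to 6, so that it was at least 5.43-fold lower there (adjusted p = 0.0458). Rptn lost its call when any of 10 arrays was left out (adjusted p 0.0554 to 0.117), and its unadjusted p with the set block was 0.0637. Such a bound sets the mean of the detected window against the dimmest signal that counted as detected on the other arrays. Psca, a surface glycoprotein of stratified and glandular epithelia, gave 13.29, 11.74, 10.10, 9.39, 8.33 and 6.95 and fell by 3.49 ± 0.70 (adjusted p = 0.0122). Serpinb11, a further serpin, went from 10.43, 8.71 and 8.01 to 6.83, 5.72 and 5.09 (difference -3.17 ± 0.55, adjusted p = 0.00722). Ppbp, the precursor of the neutrophil-attracting chemokine Cxcl7, kept its level longer than these genes. It gave 13.00, 12.92 and 12.25 on days 1 to 3 and 10.58, 8.80 and 9.51 on days 4 to 6, and fell by 3.09 ± 0.40 (adjusted p = 0.00346).

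**Figure D2:**
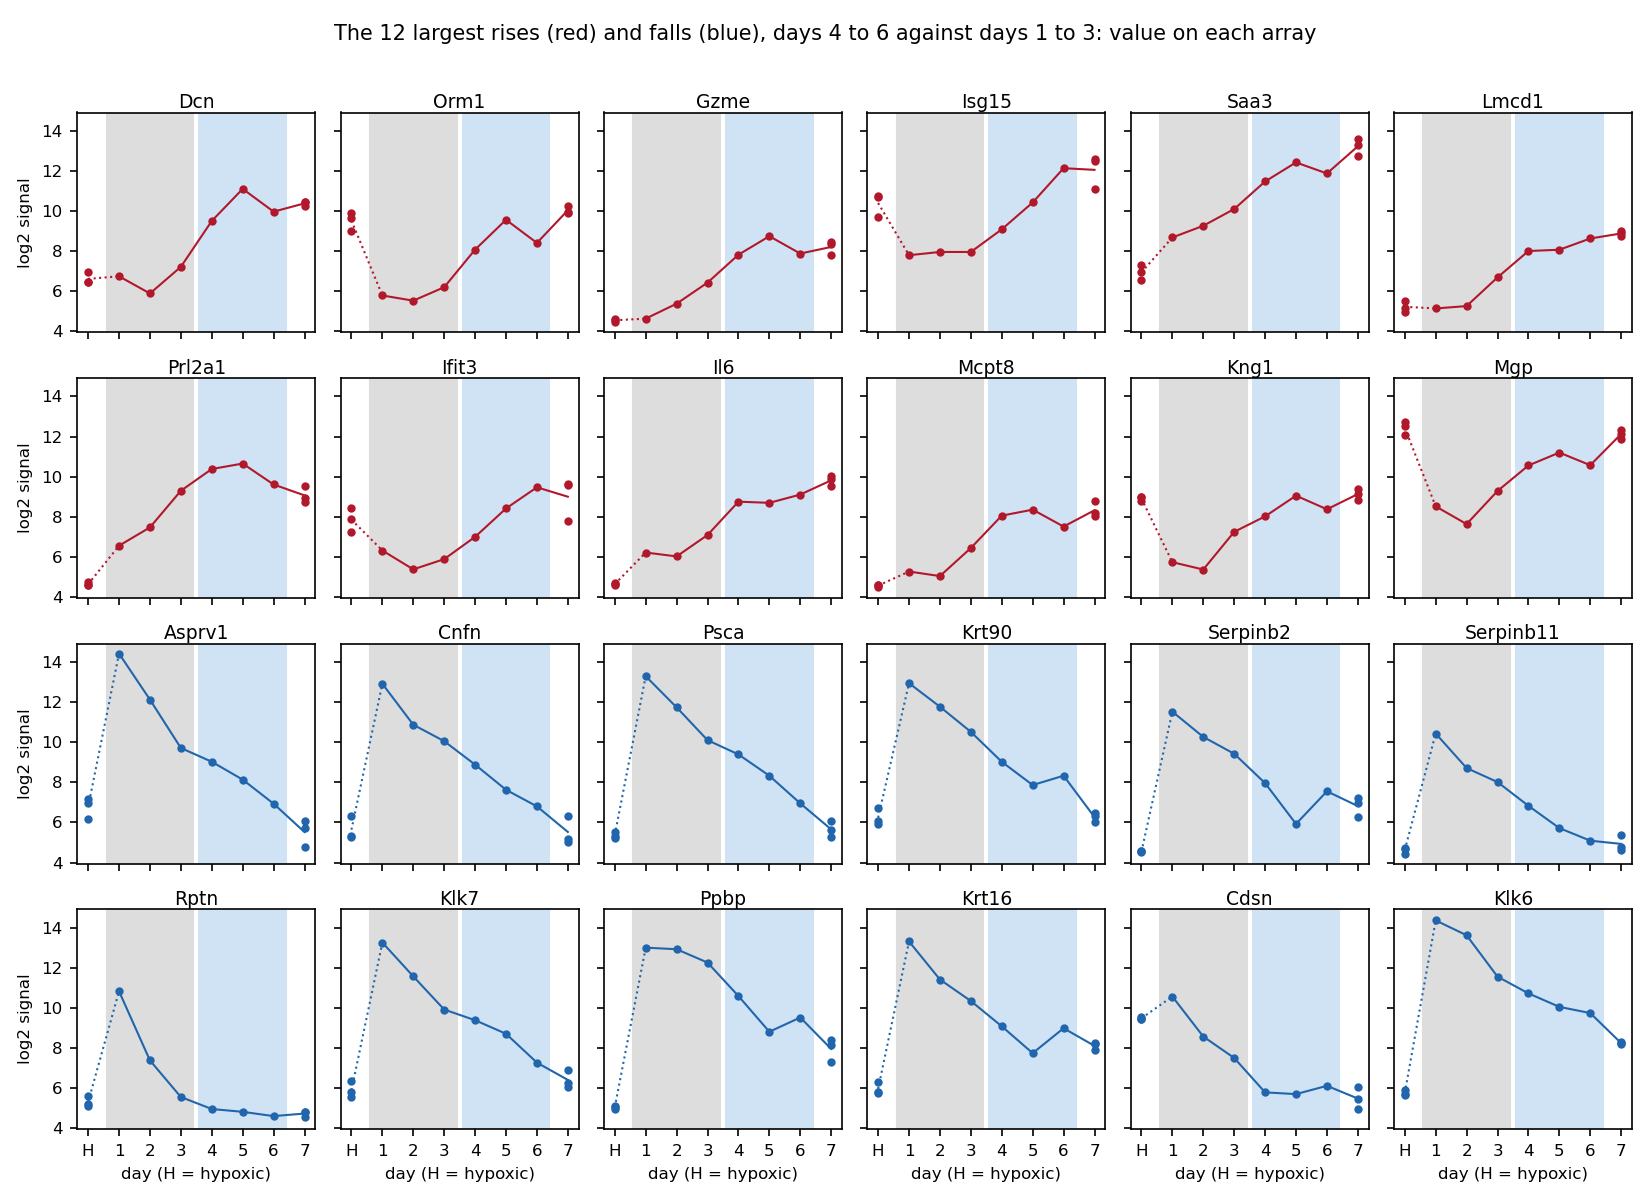
Log2 signal on every array for the 12 genes with the largest rises (red) and the 12 with the largest falls (blue), with days 1 to 3 shaded grey and days 4 to 6 blue; points are single arrays, H marks the 3 hypoxic arrays, and lines join the days, through the mean of the triplicates. The falling genes are highest on day 1, as Asprv1 at 14.42, and lower on days 4 to 6, with day 5 the lowest for Serpinb2, Krt16, Krt90, Ppbp and Cdsn, whereas Dcn goes from 5.89 to 7.22 on days 1 to 3 to 9.51 to 11.11 on days 4 to 6.

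In the list of cornified envelope and squamous genes 29 of 47 genes with a named probe were measured, of which 19 fell, 3 rose and 7 did not pass. The called share was 75.9%, against 13.1% of all genes. The median difference was -1.77 (-1.95 with the set block), and 26 members were detected on all 6 arrays, among them all 19 that fell. Of the 19 falls 10 kept the call whichever single array was left out, and 18 members were lower at an unadjusted p below 0.05 with the set block. Beyond the genes above, Sprr1b and Sprr1a, small proline-rich crosslinking proteins of the envelope, fell, with differences of -2.90 ± 0.60 and -3.00 ± 0.72. Evpl and Ppl, the plakins envoplakin and periplakin that form its scaffold, stood at -2.52 ± 0.38 and -1.61 ± 0.28, and Tgm1, the transglutaminase that crosslinks it, at -1.76 ± 0.41. Lor, loricrin, stood at -2.10 ± 0.52 and the stress keratin Krt6b at -2.23 ± 0.37, all of them past the threshold. Ivl, involucrin, stood at -1.42 on its brightest probe (adjusted p = 0.0502) and at -1.30 on its other probe, which was past the threshold (0.0081). Against this direction, Stfa1, a cysteine protease inhibitor of the stefin family, rose by 1.61 ± 0.34, S100a8, a calcium-binding alarmin, by 0.99 ± 0.25, and Krt10, a keratin of the suprabasal epidermis, by 0.64 ± 0.14. Calls ended without 1 array at least for Sprr1a, Tgm1, Lor, Stfa1, S100a8 and Krt10 (highest adjusted p 0.0807, 0.0744, 0.0810, 0.0517, 0.0936 and 0.0566). Stfa1 and the Krt6 and Sprr genes have close paralogs, so that cross-hybridization leaves the source of their signal uncertain.

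The promoters of 2 of these genes are shown for the AP-1 motif, the letters TGANTCA on either strand, a binding sequence of the Fos and Jun factors that is well known from envelope genes; both the motif and the genes were picked with these results known. The sequences are RefSeq's, assembly GRCm38.p6, from 250 bases before to 50 after the gene start, read 5′ to 3′ on the gene's strand, with TGANTCA matches in capitals. Serpinb2 lies on chr1:107511173-107511472 (plus strand; a second start of the gene gives an overlapping window) and Sprr1a on chr3:92485832-92486131 (minus strand).
Serpinb2: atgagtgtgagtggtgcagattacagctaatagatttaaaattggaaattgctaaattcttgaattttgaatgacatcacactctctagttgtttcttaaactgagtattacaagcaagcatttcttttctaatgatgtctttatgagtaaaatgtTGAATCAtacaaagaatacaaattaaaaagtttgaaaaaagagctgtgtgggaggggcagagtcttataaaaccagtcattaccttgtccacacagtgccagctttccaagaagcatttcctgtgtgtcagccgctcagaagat
Sprr1a: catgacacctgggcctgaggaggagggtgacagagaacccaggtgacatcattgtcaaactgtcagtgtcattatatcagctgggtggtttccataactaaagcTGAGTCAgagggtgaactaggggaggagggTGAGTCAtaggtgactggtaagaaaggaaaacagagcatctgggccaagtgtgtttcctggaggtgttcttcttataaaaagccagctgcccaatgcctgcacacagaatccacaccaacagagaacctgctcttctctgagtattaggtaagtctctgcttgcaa
Serpinb2 holds 1 match, at position -94 from the gene start, and Sprr1a 2 matches, at -146 and -116. Of the 29 measured list genes 22 had a promoter in the table and 9 of these (40.9%) a match, and of the 19 that fell 13 had a promoter and 7 (53.8%) a match. Among all tested genes with a promoter 542 of 8374 (6.47%) held one, and 8.97% of all promoters of the table did. A match describes letters and is no evidence of binding.

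Other epithelial lists held fewer falls. Of 21 measured basal epithelial genes 6 fell and 0 rose, a called share of 28.6% against 13.1% of all genes. The median was -0.18, against 0.0010 over all genes, and 3 of the 6 calls held whichever array was left out. Krt5, the type II keratin of basal cells, gave 11.48, 11.11 and 9.98 on days 1 to 3 and 9.03, 8.78 and 9.66 on days 4 to 6, and fell by 1.70 ± 0.34 (adjusted p = 0.0117). The windows did not overlap, though day 6 came close to day 3. Of this list and the matrix list, 4 called genes encode parts of the hemidesmosome, the junction that ties basal cells to laminin, a grouping made after their values were seen. Col17a1, its transmembrane collagen, fell by 1.47 ± 0.24 (adjusted p = 0.00549), Lamb3, a laminin chain of the junction's anchor, changed by -1.18 ± 0.23 (0.0109), and Itgb4, an integrin beta chain, by -0.98 ± 0.18 (0.0091). Itga6, the partner of Itgb4, fell by 1.27 ± 0.30 (0.0223), a call lost without day 1, 2, 5 or 6 (adjusted p 0.0556 to 0.0724), and its other probe stood at -0.04. Trp63, the master regulator of basal identity, stood at 9.49 ± 0.61 and 9.50 ± 0.42, and Krt14 at a difference of -0.13 (adjusted p = 0.507). Of 25 luminal genes 4 fell, among them Krt8 by 0.77 ± 0.14 (adjusted p = 0.0091), and 1 rose, Lcn2 (median -0.03). The called share of the luminal list was 20%.

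Some feedback genes of growth factor signalling fell. Of 28 measured immediate-early and ERK feedback genes 7 fell and 0 rose, a called share of 25% against 13.1% of all genes. The median was -0.34, or -0.25 with the set block, and 4 of the falls held whichever array was left out. Dusp5, a nuclear ERK phosphatase induced by ERK itself, gave 10.50, 9.48 and 9.39 and then 8.30, 7.48 and 8.12, without overlap, and fell by 1.82 ± 0.29 (adjusted p = 0.00531). Hbegf and Epgn, ligands of the epidermal growth factor receptor, fell, with differences of -1.16 ± 0.23 and -0.79 ± 0.22, as did Egfr itself at -0.67 ± 0.15, the last a call that ended without day 1 or day 6 (adjusted p 0.0514 and 0.0647) and whose 3 other probes stood at -0.63, -0.41 and -0.04. Egr3, an early growth response factor, fell by 1.62 ± 0.45, a call lost without any of 5 arrays (adjusted p 0.0533 to 0.111), and that of Epgn without any of 8 (0.0501 to 0.108). Atf3 (1.22) and Dusp1 (0.51) had the highest differences among members that did not pass. Thbs1, thrombospondin 1, went from 7.62, 7.44 and 7.14 to 6.41, 5.88 and 5.23 and fell by 1.56 ± 0.25 (adjusted p = 0.00543).

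Genes of the stem and tumour-initiating cell list fell where they moved. Among 29 measured members 9 fell and 0 rose, a called share of 31% against 13.1% of all genes. The median was -0.22, or -0.41 with the set block, and 20 of the 29 were detected on all 6 arrays, of which 5 fell. Notch1, a receptor of the Notch pathway, gave 8.49, 8.10 and 7.91 and then 7.36, 6.95 and 7.36, and fell by 0.94 ± 0.19 (adjusted p = 0.0134). It was the member of the 9 that kept its call whichever array was left out. Aldh1a3, a retinaldehyde dehydrogenase used as a marker of tumour-initiating cells, gave 12.70, 11.54, 10.72, 10.07, 8.36 and 10.44, and fell by 2.04 ± 0.55 (adjusted p = 0.0332). Its call ended without day 1, 2 or 5 (adjusted p 0.0781 to 0.0959), and its level in hypoxic cells was 4.88 to 5.10. Klf5, a Krüppel-like factor of epithelial progenitors, fell by 0.98 ± 0.23, the Notch ligand Jag2 changed by -0.95 ± 0.24 and Cd44, the hyaluronan receptor, by -0.60 ± 0.15. The calls of Klf5, Jag2 and Cd44 each ended without at least 3 single arrays (highest adjusted p 0.0737, 0.0810 and 0.0845). Other probes of Cd44 ran from -0.80 to -0.0073, and only some of them passed. The other probe of Aldh1a3 stood at -1.55 and did not pass (limma adjusted p = 0.0785). Notch3 fell to a level detected on 0 of 3 arrays of days 4 to 6, at least 1.26-fold lower. This list was chosen with results of these samples known, so that its direction is no independent evidence.

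**Figure D3:**
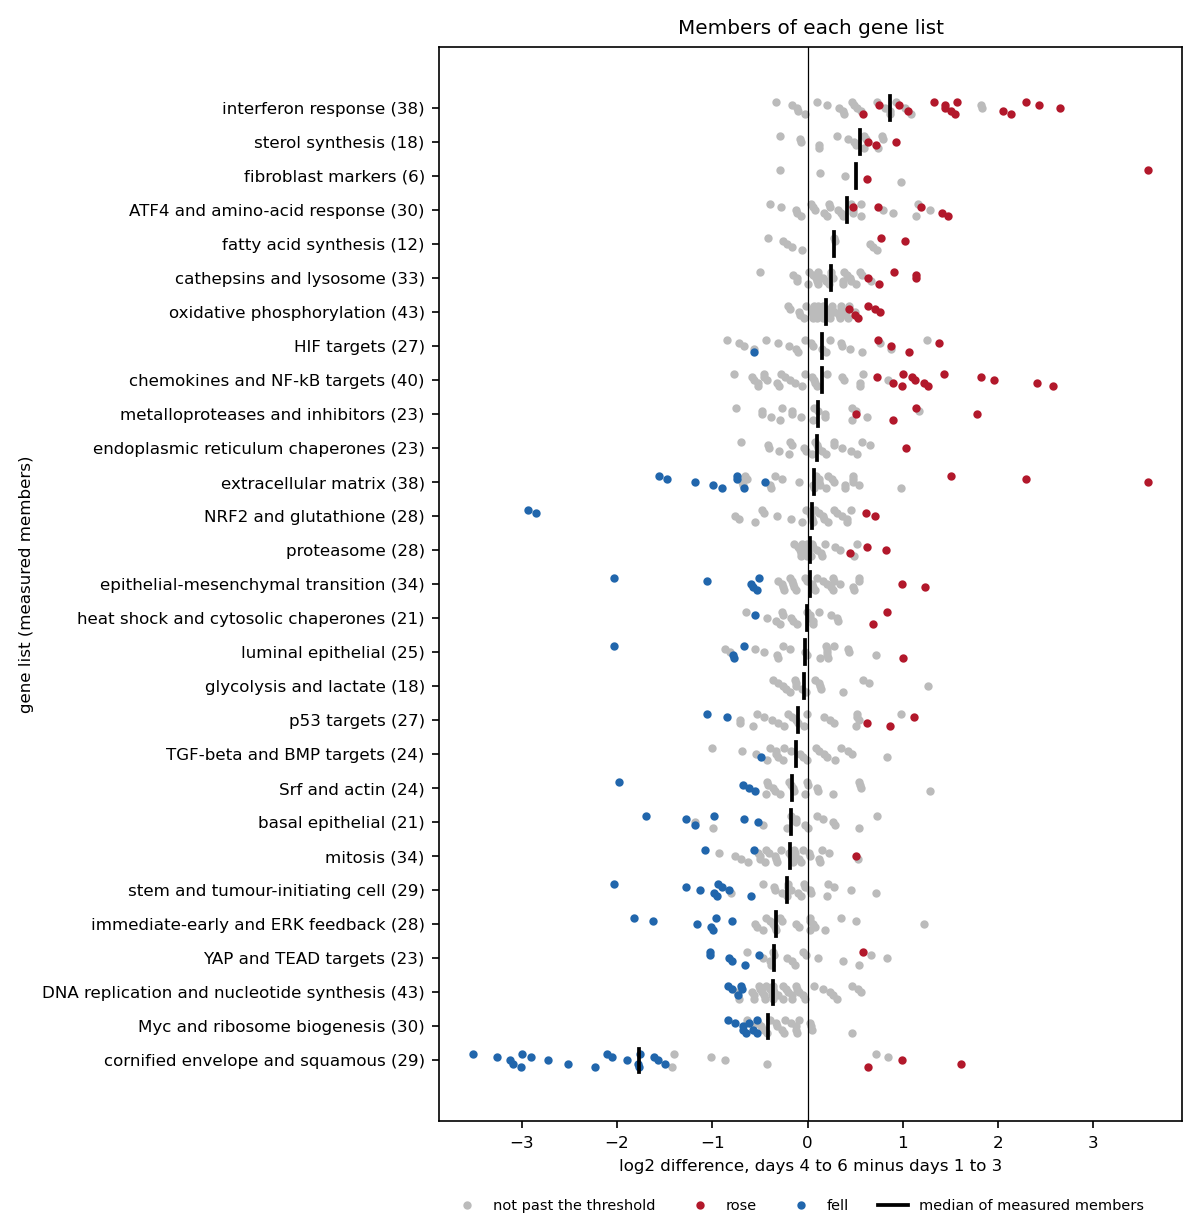
Log2 difference between days 4 to 6 and days 1 to 3 for every measured member of 29 gene lists with at least 5 measured members, ordered by median (black bars), with genes that rose in red, genes that fell in blue and members not past the threshold in grey. The interferon list lies at the top with a median of 0.86 and the cornified envelope list at the bottom with -1.77.

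The largest rise was that of Dcn, decorin, a small leucine-rich proteoglycan that binds collagen. Its log2 signals were 6.75, 5.89 and 7.22 on days 1 to 3 and 9.51, 11.11 and 9.97 on days 4 to 6, against 6.44 to 6.97 in hypoxic cells and 10.26 to 10.46 on day 7. The windows were apart by more than 2 log2 units, and Dcn rose by 3.58 ± 0.39 (11.9-fold, adjusted p = 0.00262; 3.37 with the set block). Mgp, matrix Gla protein, an inhibitor of calcification, gave 8.52, 7.64 and 9.29 and then 10.56, 11.20 and 10.57, and rose by 2.30 ± 0.35 (adjusted p = 0.00507). In hypoxic cells Mgp was at 12.06 to 12.72, so its level on days 1 to 3 was the lowest of the series. Thbs2, thrombospondin 2, a matricellular protein, rose by 1.51 ± 0.21 (adjusted p = 0.00455), while its paralog Thbs1 fell. Of 38 measured extracellular matrix genes 3 rose and 9 fell, a called share of 31.6% against 13.1% of all genes. The median was 0.06, or -0.08 with the set block and -0.39 with only probes detected on all 12 arrays. The 9 falls were those of Thbs1 and of 8 basement membrane or anchoring chains, Col17a1, Lamb3, Col7a1, Col18a1, Lama5, Col4a2, Hspg2 and Lamc1, with differences from -1.56 to -0.44; the 3 of Thbs1, Col17a1 and Lamb3 held whichever array was left out. All 6 fibroblast markers measured stood between -0.29 (Pdgfrb) and 3.58 (Dcn). Among them Col1a1 stood at 0.40 (adjusted p = 0.434) and Col3a1 at 0.98 (0.0594), the latter at -0.27 on its other probe (0.762).

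Several genes with large rises encode acute-phase proteins or, with Il6, a cytokine that drives the acute phase. They form no list of their own and were put together after their values were seen. Saa3 and Il6 are also counted in the chemokine and NF-kB list below. Orm1, alpha-1-acid glycoprotein, gave 5.79, 5.53 and 6.21 on days 1 to 3 and 8.08, 9.57 and 8.41 on days 4 to 6, and rose by 2.84 ± 0.35 (7.18-fold, adjusted p = 0.00283). In hypoxic cells it stood at 9.03 to 9.92. Saa3, a serum amyloid A, gave 8.69, 9.27, 10.10, 11.48, 12.43 and 11.88 from 6.56 to 7.33 in hypoxic cells, and rose by 2.58 ± 0.37 (5.96-fold, adjusted p = 0.00455). Saa1 was detected on 0 of 3 arrays of days 1 to 3 and on 2 of 3 of days 4 to 6, and was at least 2.52-fold higher on the latter (adjusted p = 0.0284). Its call ended without day 1, 2, 3, 5 or 6 (adjusted p 0.0626 to 0.0919). Il6, the cytokine that drives the acute phase, gave 6.22, 6.02 and 7.09 and then 8.75, 8.69 and 9.11, and was at 4.58 to 4.68 in hypoxic cells. Il6 rose by 2.41 ± 0.25 (5.31-fold, adjusted p = 0.00262), which was past the threshold in all but 1 of its 24 alternatives, the set block (adjusted p = 0.0776). Kng1, kininogen, the precursor of bradykinin, rose by 2.37 ± 0.41 (adjusted p = 0.00743), from 5.73, 5.37 and 7.25 to 8.02, 9.05 and 8.37. Its other probe passed at a smaller difference of 1.40. Orm1 and Saa1 have near-identical paralogs, so that the probe may read more than 1 gene.

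Genes known chiefly from other tissues were also among the 12 largest rises. Gzme, a granzyme of cytotoxic lymphocytes and of the placenta, gave 4.64, 5.38 and 6.43 on days 1 to 3 and 7.83, 8.75 and 7.88 on days 4 to 6, and rose by 2.67 ± 0.39 (adjusted p = 0.00467). Mcpt8, a serine protease of mouse basophils, gave 5.27, 5.04 and 6.44 and then 8.06, 8.35 and 7.51 (2.39 ± 0.34, adjusted p = 0.00455), and was detected on 1 of 3 arrays of days 1 to 3. Prl2a1, a member of the prolactin family expressed in the placenta, gave 6.56, 7.47, 9.30, 10.38, 10.65 and 9.61, with hypoxic cells at 4.57 to 4.74. It rose by 2.44 ± 0.54 (adjusted p = 0.0171), a call that ended without day 2 or day 5 (adjusted p 0.0575 and 0.0585). Lmcd1, a LIM domain protein that restrains GATA factors, went from 5.15, 5.27 and 6.70 to 8.01, 8.08 and 8.64 (2.54 ± 0.35, adjusted p = 0.00455). Other probes of Lmcd1 passed at smaller differences, 2.03 and 1.13. Lmcd1 too was detected on 1 of 3 arrays of days 1 to 3, and Gzme on 2 of 3, so that the early means of Gzme, Mcpt8 and Lmcd1 hold signals at background and the sizes of their differences, and their rank, are uncertain. On days 1 to 3 these 4 genes were highest on day 3. The defining lymphocyte markers were below the detection filter, as given above, and granzyme and mast cell protease genes have close paralogs. The next genes in the order, with values just under those of Mgp and Klk6, were Gbp3 (2.29) and Hp (2.25) among the rises and Pinlyp (-3.01) and Sprr1a (-3.00) among the falls.

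Part of the interferon-response list rose. Among 38 measured members 15 rose and 0 fell, a called share of 39.5% against 13.1% of all genes. The median was 0.86 (0.96 with the set block) against 0.0010 over all genes, and 33 of 38 differences were above 0. The list median was 0.551 without background correction, 0.525 without day 6 and 1.23 without day 4. Values did not overlap for 21 members, all higher on days 4 to 6, against 15.7% of all genes. Isg15, a ubiquitin-like modifier, gave 7.80, 7.96 and 7.96 on days 1 to 3, and 9.09, 10.43 and 12.14 on days 4 to 6. It thus held level in the first window and went up day by day in the second, and rose by 2.65 ± 0.63 (6.26-fold, adjusted p = 0.0226). Ifit3, an interferon-induced protein with tetratricopeptide repeats, gave 6.32, 5.38, 5.89, 7.00, 8.41 and 9.47 (2.43 ± 0.62, adjusted p = 0.0280). Both had been higher before the transfer, with hypoxic cells at 9.72 to 10.77 for Isg15 and 7.22 to 8.46 for Ifit3, and Ifit3 has a near-identical paralog. Their calls ended without single arrays of days 1 to 6, for Isg15 without day 1, 2, 5 or 6 (adjusted p 0.0549 to 0.0608) and for Ifit3 without day 2, 3, 5 or 6 (0.0555 to 0.0943).

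Of the 15 interferon-response genes that rose, 2 kept the call whichever array was left out. They were Parp14, an ADP-ribosyltransferase, which gave 6.66, 6.36, 6.59, 7.61, 7.60 and 8.73 (1.44 ± 0.28, adjusted p = 0.0112), and Ifi47, an interferon-inducible GTPase. Ifi47 was detected on 0 of 3 arrays of days 1 to 3 and on 3 of 3 of days 4 to 6, at 6.03, 7.26 and 8.51, and was at least 3.70-fold higher there (adjusted p = 0.0145). Irf9, the DNA-binding subunit of the interferon-stimulated factor complex, went from 6.93, 6.76 and 7.02 to 7.55, 8.69 and 9.19, a rise of 1.57 ± 0.33 whose call ended without day 5 (adjusted p = 0.0503). The guanylate-binding protein Gbp3 (2.29 ± 0.54) and Gbp2 (1.55 ± 0.34) rose with calls that ended without day 2 (adjusted p 0.0650 and 0.0598). Usp18, the protease that removes Isg15 from its targets, rose by 2.05 ± 0.51, and Bst2, tetherin, by 1.51 ± 0.38; each call ended without any of 4 arrays (highest adjusted p 0.0745 and 0.0726). Genes of antigen presentation were part of the group, with Tap2, a peptide transporter, at 1.06 ± 0.24, the immunoproteasome subunit Psmb8 at 1.32 ± 0.38 and H2-K1, a class I heavy chain, at 0.75 ± 0.17, each past the threshold. Those 3 calls ended without at least 3 single arrays each (highest adjusted p 0.0654, 0.112 and 0.0672). Other probes of Ifit3 (1.37), Usp18 (1.62), Gbp3 (1.83), Psmb8 (0.67) and H2-K1 (0.64 and 0.63) did not pass, while that of Irf9 (1.44) did. Tap1, the partner of Tap2, had the lowest difference of the list, -0.33.

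The promoters of Isg15 and Ifit3, the members with the largest rises, are shown for the core of the interferon-stimulated response element, the letters GAAA, any 2 bases and GAAA again, searched on both strands, likewise chosen with the results known. Matches are in capitals; those of Ifit3 are on the opposite strand. Isg15 lies on chr4:156200769-156201068 (minus strand) and Ifit3 on chr19:34583279-34583578 (plus strand), in the same RefSeq windows of GRCm38.p6.
Isg15: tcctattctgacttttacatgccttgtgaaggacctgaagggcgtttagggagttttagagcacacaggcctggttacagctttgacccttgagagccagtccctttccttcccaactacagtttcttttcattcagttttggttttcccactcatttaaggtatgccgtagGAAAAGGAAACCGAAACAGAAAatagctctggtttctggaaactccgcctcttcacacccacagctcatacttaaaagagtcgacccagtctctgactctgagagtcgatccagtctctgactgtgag
Ifit3: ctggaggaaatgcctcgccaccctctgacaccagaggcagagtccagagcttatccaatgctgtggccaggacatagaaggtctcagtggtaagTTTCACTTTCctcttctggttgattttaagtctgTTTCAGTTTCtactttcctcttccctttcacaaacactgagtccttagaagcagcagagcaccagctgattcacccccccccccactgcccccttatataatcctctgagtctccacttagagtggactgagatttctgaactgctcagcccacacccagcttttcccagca
Isg15 holds 3 overlapping matches that start at positions -78, -72 and -66, and Ifit3 holds TTTCACTTTC at -156 and TTTCAGTTTC at -122. Of the 38 measured list genes 31 had a promoter and 15 of them (48.4%) a match, and of the 15 that rose 12 had a promoter and 6 a match, against 303 of 8374 tested genes (3.62%) and 3.99% of the whole table. These are counts of letters in the windows.

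Some chemokines and other NF-kB targets rose. Among 40 measured members 13 rose and 0 fell, a called share of 32.5% against 13.1% of all genes. The median was 0.15, or 0.25 with the set block. Of the 13 rises 5 held whichever array was left out, namely Saa3, Il6, Ccl5, Cxcl14 and Lcn2. Ccl5, a chemokine for T cells and monocytes, gave 6.83, 6.42 and 6.42 and then 7.40, 7.95 and 8.62, and rose by 1.44 ± 0.31 (adjusted p = 0.0150; 1.93 with the set block). Cxcl14, a chemokine of normal epithelium, gave 7.27, 7.29 and 7.00 and then 8.21, 8.48 and 8.53 (1.22 ± 0.17, adjusted p = 0.00455). Lcn2, lipocalin 2, an iron-scavenging protein, rose by 1.00 ± 0.20 (adjusted p = 0.0119). Ccl9, a monocyte chemokine, rose by 1.82 ± 0.48, going from 5.88 on day 1 to 9.65 on day 6, and Ccl2 by 1.10 ± 0.24; these calls ended without 3 and 2 single arrays (highest adjusted p 0.105 and 0.0600). Neutrophil chemokines of the list did not pass, with Cxcl3 at -0.77 and Cxcl2 at -0.58 the lowest differences. Ppbp, the precursor of the neutrophil-attracting chemokine Cxcl7, stands outside this list and fell by 3.09 ± 0.40, as given above. Cd14, the lipopolysaccharide co-receptor and a member of the macrophage marker list, rose by 1.21 ± 0.26, a call lost without day 2 (adjusted p = 0.0579); its values were 9.66, 9.30 and 9.80 and then 10.77, 11.37 and 10.23.

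Mmp14, a collagen-cleaving protease held in the cell membrane and the gene for which the series is titled, did not pass between the windows. Its signals were 12.20, 11.79, 11.99, 11.96, 11.94 and 11.57 on days 1 to 6, all below the 12.99 to 13.11 of hypoxic cells, and those of days 1 to 5 were above the 11.41 to 11.68 of day 7. The difference was -0.17 ± 0.15 SE (adjusted p = 0.513), and it did not pass in any of its 25 alternatives (adjusted p 0.347 to 0.901). Of 23 measured metalloproteases and inhibitors 4 rose and 0 fell, a called share of 17.4% beside 13.1% of all genes. The median was 0.10, and 0 of the 4 calls held whichever array was left out. They were Mmp12, macrophage elastase (1.78 ± 0.52, adjusted p = 0.0430), the gelatinase Mmp2 (1.14 ± 0.31, 0.0335), the stromelysin Mmp11 (0.89 ± 0.26, 0.0461) and Mmp24 (0.51 ± 0.13, 0.0238). Without single arrays their adjusted p reached 0.143, 0.112, 0.153 and 0.0683. With the set block Mmp11 stood at 0.23, and of Mmp24 the 2 other probes passed in the opposite direction, at -1.73 and -1.17, so that its direction depends on the probe.

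Some genes of ribosome production fell. Of 30 measured Myc and ribosome biogenesis genes 9 fell and 0 rose (30% called, against 13.1% of all genes; median -0.41, or -0.43 with the set block), and 26 of the 30 differences were at or below 0. Polr1b, a subunit of RNA polymerase I, gave 9.18, 9.22 and 9.26 and then 8.61, 8.19 and 8.36. It was the one of the 9 that held whichever array was left out (-0.83 ± 0.13, adjusted p = 0.00543). Rrp12, a factor of ribosome export, stood at -0.77 ± 0.20 (adjusted p = 0.0292) and Ncl, nucleolin, at -0.68 ± 0.18 (0.0337), with calls that ended without 4 and 5 single arrays (highest adjusted p 0.0967 and 0.113). Of 43 DNA replication genes 5 fell and 0 rose, a called share of 11.6% that lies near the 13.1% of all genes (median -0.36; -0.37 with the set block). They were Mcm2, Mcm4, Mcm5 and Mcm10, parts or partners of the replicative helicase, and the maintenance methyltransferase Dnmt1. Their differences ran from -0.83 to -0.69, and none of the 5 calls held without every single array (highest adjusted p 0.0585 for Dnmt1 to 0.120 for Mcm10). Other probes of Mcm10 stood at 0.23 and -0.56 and that of Mcm4 at -0.54, and none of these passed. Of 34 mitosis genes 2 fell and 1 rose (8.82% called, median -0.18). Mybl2, a transcription factor of S phase and mitotic genes, fell by 1.08 ± 0.21 (adjusted p = 0.0104). Kif23, the gene that rose on its brightest probe (0.51), stood at -0.77 and -0.42 on 2 others, the former past the threshold. Day 5 had the lowest list medians of days 1 to 6 for these lists, and levels on all 6 days lay above those in hypoxic cells (list medians on hypoxic arrays for mitosis -2.34 to -2.15 relative to the mean of days 1 to 6).

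Among genes of metabolism the called shares lay near the 13.1% of all genes, at 14% for oxidative phosphorylation, 16.7% each for sterol and fatty acid synthesis and 15.2% for the lysosome. Of 43 oxidative phosphorylation genes 6 rose and 0 fell (median 0.19), from Cox6c at 0.44 to Ndufb9 at 0.76, and 0 of the 6 calls held whichever array was left out (highest adjusted p from 0.0672 for Cox4i1 to 0.145 for Atp5e). Of 18 sterol synthesis genes 3 rose and 0 fell (median 0.55), Tm7sf2, Pmvk and Sc5d, each lost without at least 5 arrays. The sterol median rested on single days, at 0.22 without day 1 and 0.83 without day 3. Of 12 fatty acid synthesis genes 2 rose, of which Acsl4, a ligase for polyunsaturated fatty acids, went from 8.13, 8.17 and 8.85 to 9.37, 9.45 and 9.39 (1.02 ± 0.20, adjusted p = 0.0114). Of 18 glycolysis genes 0 passed limma's threshold (median -0.04), with Aldoc, an aldolase, at 1.26 and Hk1, a hexokinase, at -0.37 as the extremes. Of 33 lysosomal genes 5 rose and 0 fell (median 0.25), among them Npc2, a cholesterol carrier, by 0.90 ± 0.17 (adjusted p = 0.0104).

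Some stress-response genes rose, but the called shares, 16.7% for the ATF4 list and 18.5% for HIF targets, lay near the 13.1% of all genes. Of 30 ATF4 and amino-acid response genes 5 rose and 0 fell (median 0.42 with and without the set block). Nupr1, a stress-induced chromatin protein, was at 14.13 to 14.19 in hypoxic cells, at 11.08, 10.79 and 11.25 on days 1 to 3 and at 11.95, 13.28 and 12.14 on days 4 to 6, a rise of 1.41 ± 0.30 (adjusted p = 0.0152) that ended without day 2 (0.0537). Aldh1l2, a mitochondrial folate enzyme, and Slc3a2, the heavy chain of amino-acid exchangers, rose by 1.47 ± 0.38 and 1.19 ± 0.31, each lost without at least 3 arrays (highest adjusted p 0.0956 and 0.0902). Day 5 was the highest day of the list, and without it the list median was 0.17. Hspa5, the main chaperone of the endoplasmic reticulum, went from 8.10, 8.49 and 8.35 to 9.51, 9.40 and 9.13 (1.03 ± 0.17, adjusted p = 0.00587). It was the 1 of 23 chaperone genes that passed, a called share of 4.35%, below the 13.1% of all genes. Of 27 HIF targets 4 rose and 1 fell (median 0.15). Ddit4, an inhibitor of mTORC1 signalling, was at 12.37 to 12.52 in hypoxic cells and went from 9.93, 9.69 and 10.65 to 11.23, 11.97 and 11.21 (1.38 ± 0.28, adjusted p = 0.0124). Bnip3l, a mitophagy receptor, rose by 0.88 ± 0.18 (adjusted p = 0.0122), while the calls of Mxi1 (1.07) and Vegfa (0.74) ended without 4 and 6 single arrays (highest adjusted p 0.0647 and 0.126). All 6 arrays were labelled with the same oxygen level.

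Among 28 NRF2 and glutathione genes 2 fell and 2 rose (median 0.05), a called share of 14.3% that lies near the 13.1% of all genes. Gsta1 and Gsta2, glutathione transferases so alike that the probes may read both, went from 11.13, 9.69 and 8.55 to 7.71, 6.49 and 6.37 and from 10.66, 9.0 and 8.45 to 7.25, 6.36 and 5.95. The differences were -2.93 ± 0.53 (adjusted p = 0.00860) and -2.85 ± 0.50 (0.00766), and both genes were highest on day 1. Of 27 p53 targets 3 rose and 2 fell (18.5% called, median -0.10). Plk2, a polo-like kinase, fell by 1.05 ± 0.21 (adjusted p = 0.0112; -1.40 with the set block) and Ccnd1, a G1 cyclin, changed by -0.84 ± 0.17 (0.0134), while the death receptor gene Fas rose by 0.86 ± 0.16 (0.00869). Of 23 YAP and TEAD targets 6 fell and 1 rose (30.4% called, median -0.35), with 0 of these 7 calls kept whichever array was left out. Dlc1 and Ajuba, the largest falls, were detected on 0 of 3 arrays of days 4 to 6 and were at least 1.33-fold and 1.45-fold lower. Of 34 genes of epithelial-mesenchymal transition 2 rose and 6 fell (23.5% called). The median was 0.02, or -0.05 with the set block. Ovol1, a transcriptional repressor of the mesenchymal state, went from 8.50, 7.37 and 6.78 to 5.40, 5.46 and 5.68 (-2.04 ± 0.36, adjusted p = 0.00829), and Plaur, the urokinase receptor, fell by 1.06 ± 0.21 (0.0122).

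In the remaining lists called shares were 16.7% for Srf and actin, 14.3% for heat shock, 10.7% for the proteasome and 4.17% for TGF-beta and BMP targets, beside 13.1% of all genes. Of 24 Srf and actin genes 4 fell and 0 rose (median -0.16), led by Acta1, skeletal actin (-1.98 ± 0.46, adjusted p = 0.0207), whose call ended without day 1, 2 or 5 (0.0613 to 0.0671). Of 21 heat shock genes 2 rose (Dnajb4 and Hspb8) and 1 fell (Bag3), of 28 proteasome genes 3 rose (Psmc6, Psmd8 and Psmb5), and of 24 TGF-beta and BMP targets 1 fell (Bmpr2). None of these 7 calls held whichever array was left out (highest adjusted p 0.0753 for Psmd8 to 0.133 for Psmb5). Egfl7, of the endothelial list, rose on its brightest probe (1.08) and stood at -0.19 and -0.29 on 2 others.

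The days within a window were not alike, and the order of days shows which genes were already moving. Of the 640 genes that fell, 245 (38.3%) were higher on day 3 than on day 1 and 151 (23.6%) higher on day 6 than on day 4, and 300 were lower on the later day in both windows, against 53.1% and 48.7% of all genes being higher. Of the 722 that rose, 411 (56.9%) were higher on day 3 than on day 1 and 542 (75.1%) higher on day 6 than on day 4. Both days of such a pair lie in 1 array set, and the genes were chosen on these same arrays. Cornified envelope genes moved mostly inside the first window, with a median of -1.83 from day 1 to day 3 (24 of 29 at least 2-fold lower) and -0.41 from day 4 to day 6. Interferon-response genes moved inside the second, with -0.02 and then 1.15 (22 of 38 at least 2-fold higher, and 36 of 38 higher). Sterol synthesis genes gave medians of 0.79 and then -0.18, and ATF4 genes 0.51 and then -0.39. All 34 mitosis genes were higher on day 3 than on day 1 (median 0.40). These are differences between single arrays and have no replicate check.

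**Figure D4:**
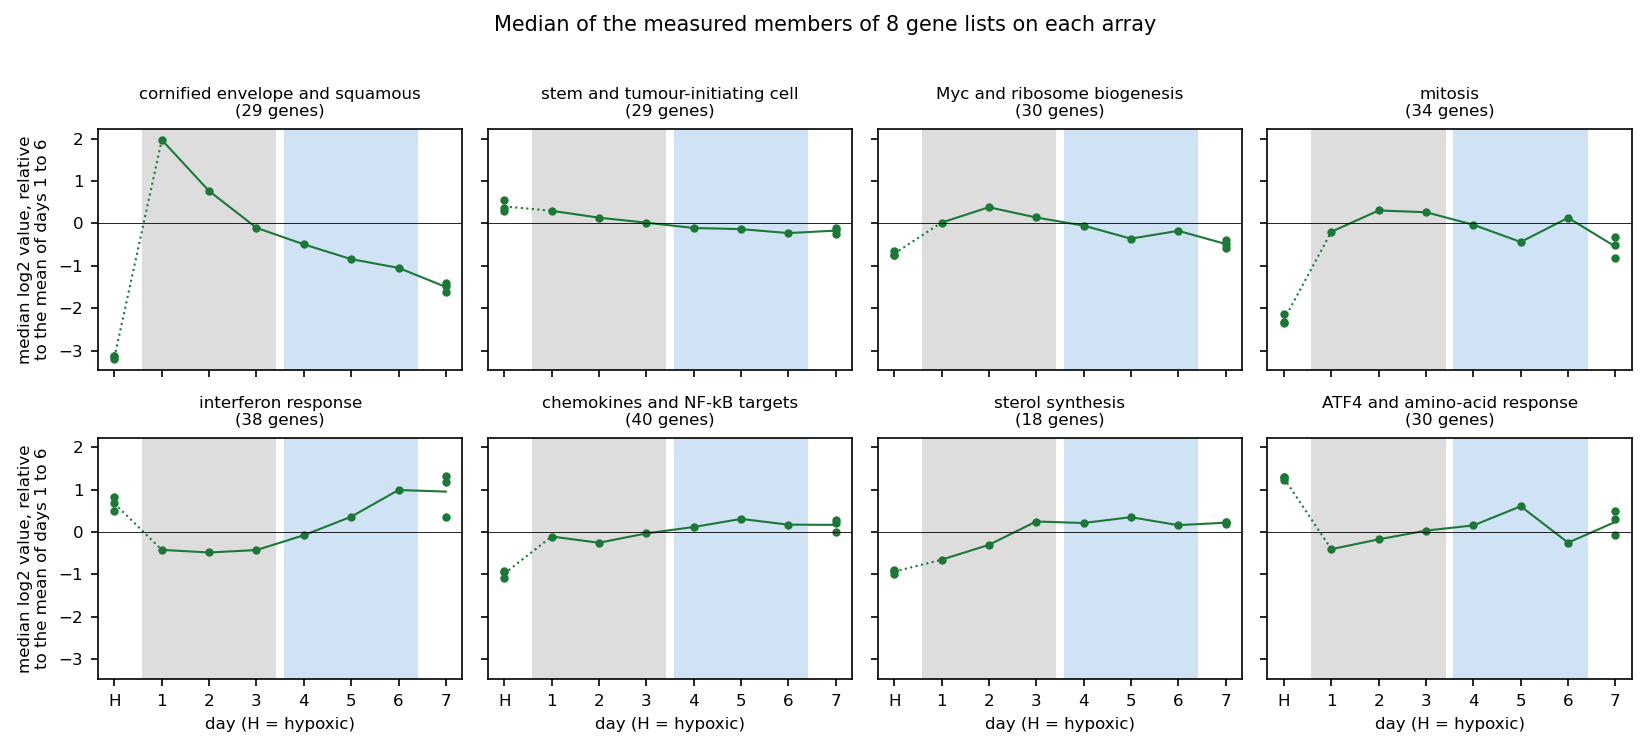
Median log2 value over the measured members of 8 gene lists on each array, relative to each gene's mean over days 1 to 6; points are arrays, H marks the hypoxic arrays, lines join the days, and days 1 to 3 and 4 to 6 are shaded grey and blue. The cornified envelope median runs down from 1.97 on day 1 to -1.05 on day 6, and that of the interferon list stays near -0.42 to -0.48 on days 1 to 3 and reaches 0.99 on day 6.

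The step from day 3 to day 4, at which the inferred set changes, was compared with the other steps. From day 3 to day 4, 464 genes were at least 2-fold apart (median absolute difference 0.29), against 471 from day 1 to day 2, 283 from day 2 to day 3, 439 from day 4 to day 5 and 592 from day 5 to day 6 (medians 0.26, 0.23, 0.23 and 0.29). Replicates of the triplicates differed in 164 genes for the hypoxic pair within a set and in 155 and 218 across sets, and in 550 for the day 7 pair within a set and 333 and 499 across sets. By the 2-fold count the step across the change of set lay inside the range of the steps within a set, and by the median it equalled the highest. It was the largest of the steps for 2525 genes, against 1436 to 2654 for the others. Day and inferred set change together at this step and cannot be told apart there, and the part of the set was not tested. Day 1 and day 6, the outermost pair, were at least 2-fold apart in 1322 genes.

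**Figure D5:**
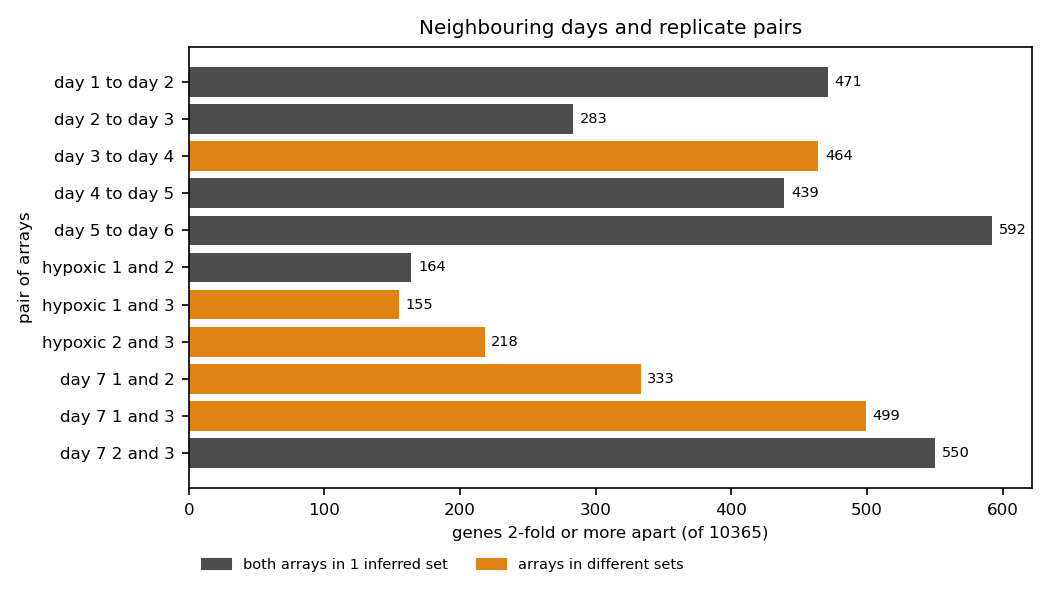
Number of genes at least 2-fold apart, of 10365, between neighbouring days and between replicate arrays, in grey where both arrays lie in 1 inferred set and in orange where they lie in different sets. The step from day 3 to day 4 (464 genes) lies within the range of the other steps (283 to 592).

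The genes that moved between the windows were also set against day 7 minus hypoxic cells, whose means use none of the same arrays. Both contrasts share 1 estimate of each gene's spread over all 12 arrays, so that a gene called in one is more readily called in the other. There 25.1% of all genes were higher and 32.9% lower on day 7 at an adjusted p below 0.05. Of the 722 genes that rose from days 1 to 3 to days 4 to 6, 367 (50.8%) were higher on day 7 than in hypoxic cells, 131 (18.1%) lower and 224 not past the threshold. Of the 640 that fell, 77 (12%) were higher, 361 (56.4%) lower and 202 not past it. By level, the genes that rose had medians of 9.0 in hypoxic cells, 8.18 on days 1 to 3, 9.11 on days 4 to 6 and 9.55 on day 7, and those that fell 8.49, 9.25, 8.38 and 7.97. Of the rises, 397 followed an opposite move of at least 0.5 between hypoxic cells and days 1 to 3, as for Mgp and Orm1, 84 a move the same way, as for Saa3, and 241 a smaller one; of the falls, 314 followed an opposite move and 89 one the same way. Up to day 7, 455 of the rises and 443 of the falls stayed within 0.5 of days 4 to 6, 243 and 180 went at least that much further, and 24 and 17 went back. These last counts share arrays with the comparison and are a description.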

How the data were processed

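Expression was measured on 12 one-colour Illumina arrays; groups, days and replicate numbers came from the sample titles. The deposited table of all arrays gives 45281 probes, each with log2 signals and detection p-values, and per the file headers only the log2 signals carry sample names. From the values, the deposited log2 signals were neither background-corrected nor normalized between arrays. The deposited p-values do not belong to the signal beside them (0 of 12 neighbours) and were joined to the signal that each orders exactly. The authors' second table, in which 1 of 6 log2 signal columns held the array of its own label, was not used beyond finding the array sets; scanner software, summarization and normalization are not given in the sources used here. Per the labels' protocols, RNA was extracted with the peqGOLD kit and amplified to biotinylated cRNA.

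With limma 3.58.1 in R 4.3.3, signals were processed by neqc (offset 16, quantile, log2). Probes with a detection p below 0.05 on at least 3 of 12 arrays were kept (18561, of which 16023 had 1 gene), and each gene was read from its brightest kept probe, which gave 10365 genes, 3872 of them with several probes. Of all probes 34885 had 1 symbol in the platform annotation, 18 several and 10378 none. A limma model with a mean for each of 4 windows (hypoxic, days 1 to 3, days 4 to 6, day 7) and 8 residual degrees of freedom was fitted, 2-sided, with Benjamini-Hochberg adjustment over all genes. The days of a window stand in for replicates, so their trend is part of the error. Alternatives were the array set as a block, other groupings, scalings, filters and probe rules, and the omission of each array.

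The named genes were the 12 largest rises and falls among those past the threshold with windows that do not overlap, detected on all 3 arrays of the higher window (none was past the threshold in the window fit with the set block, which the rule put first), the largest called members of each of 34 lists, and Mmp14; predicted genes were not named, and some further list members were named after their values were seen. The lists held 1038 entries, of which 970 had a named probe (9 by synonym) and 805 were measured. The samples, lists and motifs were chosen with earlier results of these data known, and no list was tested. Of 180 genes named by size or called in a list, 71 had another kept probe, which pointed the other way for 7 and passed so for 2 (Kif23 and Mmp24).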

Additional observations from a re-analysis of the deposited data

How the results depend on the processing

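Against 1362 genes past limma's threshold (722 higher, 640 lower), the array set as a block left 0 in each direction (1620 at an unadjusted p below 0.05), a mean for each of the 8 labelled groups with that block 117 (54 higher, 63 lower; 106 shared with the 1362), the 6 arrays of days 1 to 6 alone in the fit 31 (25 and 6), and the same 6 also normalized alone 204 (123 and 81). A slope per day gave 426 (205 and 221; 352 shared), and a shift to a common median 466 higher of 1036 (45% against 53%). Leaving out 1 array gave 588 (without day 6) to 1271 (without day 7 replicate 3) in all, 302 (without day 2) to 678 higher and 238 (without day 6) to 593 lower; the count lower was 408 without day 1. The other 8 alternatives of scaling, filter, probe rule and grouping gave 1005 to 1688. Of 181 single genes followed, 3092 of 4481 values kept their side of the threshold, 1384 lost the call and 5 reversed, namely Kif23 with the 6 arrays normalized alone (-0.41), with the mean over probes (-0.23) and with every probe on its own (-0.77), and Mmp24 with the mean over probes (-0.80) and every probe (-1.17). Of 180 such genes 57 kept the call whichever array was left out. Of 696 list medians under alternatives 15 moved by more than 0.226, the typical SD within a window; when single days were left out the fibroblast marker median ran from 0.24 to 0.743 and that of the cornified envelope list from -2.12 to -1.28, and with only probes detected on all 12 arrays the fibroblast median was 2.10. Day 7 minus hypoxic gave 6012 genes, and 5062 to 6385 under the alternatives. No paired analysis was possible because the arrays of days 1 to 6 all carry replicate number 1. The cause of these changes was not tested, apart from the fewer arrays in a fit. Signal over background limits genes detected in 1 window only.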
